A study of Drosophila melanogaster with 110 samples.

Results

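Polycomb domains are stretches of chromatin that carry trimethylation of lysine 27 on histone H3 (H3K27me3) and keep developmental genes silent. In flies, Polycomb repressive complex 2, with the methyltransferase E(z) and its partner Su(z)12, places the mark, and Polycomb repressive complex 1, with Pc, Psc and Polyhomeotic (Ph), binds within the marked chromatin. Both complexes gather at Polycomb response elements, short DNA elements read by sequence-specific proteins such as Pho, Combgap (Cg) and Crol. The domains described here are the H3K27me3 domains that contain Ph sites. They were chosen by measured peaks: overlapping H3K27me3 peaks of 4 lists were merged into 518 domains, overlapping Ph peaks of 6 lists were merged into 3495 regions, and the 2086 Ph regions with peaks in 3 or more lists were kept. Of the 518 H3K27me3 domains, 284 (54.83%) overlapped at least 1 kept Ph region, and 234 did not. Because H3K27me3 and Ph selected these domains, values of both are given as a description, without a test.

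The data are ChIP-seq peak lists from Kc167, a Drosophila melanogaster cell line labelled as hemocyte, the blood cell of the fly. Cells were transfected with double-stranded RNA against rump (rump RNAi) or against GFP, a gene these cells lack (control), and were kept for 4 days at 25 °C. Rump is an RNA-binding protein. Peak lists hold no expression, so neither the rump level nor the cell type label could be checked. For each condition, 3 libraries were made for each of 12 proteins and 2 libraries for H3K27me3, 76 lists in all. The labels call them biological replicates without saying how the cultures were separated. The lists hold between 214 and 11117 peaks, and read counts were not part of them. The question throughout is what the domains with Ph hold besides Ph, and whether that differed after rump RNAi.

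Lists of the same protein differed in length, which touches every count of domains with a peak. Psc lists held 322 to 398 peaks in rump RNAi and 723 to 881 in control, and Crol lists 9883 to 11117 in rump RNAi and 7214 to 8903 in control. Su(z)12 lists varied most within a condition, with 368 to 4267 peaks in rump RNAi and 315 to 2855 in control. The H3K27me3 lists held 321 and 343 peaks in rump RNAi, against 296 and 452 in control. The longest of these, control library 2, was the only H3K27me3 list with a peak in 28 of the 284 domains. Without it, 256 domains met the rule. Control library 2 was also the only list with a peak in 93 of the 234 domains without Ph. Exactly 1 H3K27me3 list had a peak in 131 of these 234 domains, against 54 of the 284 domains with Ph. The part of this imbalance in the comparisons of domains with and without Ph was not tested.

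The DNA under a Ph summit is shown for 7 of the domains, to set domains that carry both complexes beside domains that carry Ph with few other Polycomb proteins. The summit is the strongest of its domain except at the Antennapedia complex (rank 4) and tsh (rank 2). Each sequence is the 300 bp window around a Ph summit, on the plus strand of the dm6 assembly, with no annotated exon in it. Capitals mark 3 motifs on either strand: GCCAT, the core of the Pho site; GAGAG, bound by the GAGA factor; and GTGTGT, a repeat bound by Combgap. Copies of a motif may overlap.
Antennapedia complex, chr3R:7037293-7037592, between genes: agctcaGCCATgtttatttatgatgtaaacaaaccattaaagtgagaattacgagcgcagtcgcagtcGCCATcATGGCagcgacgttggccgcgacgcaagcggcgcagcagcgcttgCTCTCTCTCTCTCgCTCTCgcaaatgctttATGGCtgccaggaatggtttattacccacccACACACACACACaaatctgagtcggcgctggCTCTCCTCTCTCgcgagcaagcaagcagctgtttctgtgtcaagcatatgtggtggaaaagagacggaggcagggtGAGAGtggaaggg
Bithorax complex, chr3R:16830095-16830394, 196 bp from the start of abd-A: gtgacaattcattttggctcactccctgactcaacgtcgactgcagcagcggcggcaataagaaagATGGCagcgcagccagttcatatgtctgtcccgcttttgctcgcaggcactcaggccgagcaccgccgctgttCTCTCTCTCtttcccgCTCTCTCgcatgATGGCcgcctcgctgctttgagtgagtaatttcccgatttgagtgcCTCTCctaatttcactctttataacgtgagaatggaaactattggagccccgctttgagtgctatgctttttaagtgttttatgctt
tsh domain, chr2L:21899182-21899481, between genes: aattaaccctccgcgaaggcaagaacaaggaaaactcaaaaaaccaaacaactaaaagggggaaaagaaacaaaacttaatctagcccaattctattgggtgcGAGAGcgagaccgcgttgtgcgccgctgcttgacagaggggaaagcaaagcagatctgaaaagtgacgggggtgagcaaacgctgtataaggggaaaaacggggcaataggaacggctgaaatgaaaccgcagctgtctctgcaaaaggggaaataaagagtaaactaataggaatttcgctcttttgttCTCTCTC
bi domain, chrX:4411433-4411732, in an intron of the noncoding gene lncRNA:CR32773: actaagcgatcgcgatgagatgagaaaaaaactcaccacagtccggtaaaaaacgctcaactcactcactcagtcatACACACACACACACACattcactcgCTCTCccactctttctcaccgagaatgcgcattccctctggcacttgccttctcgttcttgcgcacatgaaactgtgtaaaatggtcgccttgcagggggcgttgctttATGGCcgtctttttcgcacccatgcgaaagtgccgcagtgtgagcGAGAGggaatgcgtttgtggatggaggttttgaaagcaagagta
upd1/upd2/upd3 domain, chrX:18312478-18312777, 3337 bp from the start of upd1: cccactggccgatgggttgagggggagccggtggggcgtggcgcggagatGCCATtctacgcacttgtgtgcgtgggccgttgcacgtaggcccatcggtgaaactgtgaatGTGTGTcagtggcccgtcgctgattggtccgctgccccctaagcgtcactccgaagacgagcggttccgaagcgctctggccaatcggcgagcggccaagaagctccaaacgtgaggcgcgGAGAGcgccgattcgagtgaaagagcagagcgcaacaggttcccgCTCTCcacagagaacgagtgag
CG15543 domain, chr3R:30741578-30741877, 1152 bp from the start of CG15543: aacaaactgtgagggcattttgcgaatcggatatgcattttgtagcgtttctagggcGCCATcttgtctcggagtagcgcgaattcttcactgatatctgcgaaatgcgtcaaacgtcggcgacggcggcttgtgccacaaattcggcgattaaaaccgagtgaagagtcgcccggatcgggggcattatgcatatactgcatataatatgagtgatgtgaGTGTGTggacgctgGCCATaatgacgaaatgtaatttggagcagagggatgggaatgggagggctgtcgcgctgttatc
CG15040 domain, chrX:18587307-18587606, between genes: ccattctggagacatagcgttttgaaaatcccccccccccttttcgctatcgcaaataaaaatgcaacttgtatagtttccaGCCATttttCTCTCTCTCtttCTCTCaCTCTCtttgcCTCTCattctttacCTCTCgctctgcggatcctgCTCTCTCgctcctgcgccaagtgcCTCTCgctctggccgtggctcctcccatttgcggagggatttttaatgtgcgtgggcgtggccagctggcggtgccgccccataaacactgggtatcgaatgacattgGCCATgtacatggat

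The upper 5 windows had Pc, Psc, E(z), Pho, Crol and Cg peaks in all 3 rump RNAi and all 3 control libraries, and Su(z)12 peaks in all libraries except 1 rump RNAi library at tsh. The Antennapedia complex window held 4 copies of GCCAT, 10 of GAGAG and 4 of GTGTGT, and the tsh window held 3 of GAGAG and no copy of the other motifs. The lower 2 windows had no Psc, E(z) or Su(z)12 peak in any library, yet the CG15543 window held 2 copies of GCCAT and the CG15040 window held 2 of GCCAT and 10 of GAGAG. The CG15543 window did have Pc, Crol and Cg peaks, each in 1 rump RNAi and 3 control libraries, and Pho in 3 and 3. The CG15040 window had Pho in 2 rump RNAi and 3 control libraries and Crol in 1 and 1, without Pc or Cg. The Ph peak at CG15543 was weak, with a fold enrichment over input of 3.73 in rump RNAi library 3 and no peak in libraries 1 and 2. In control it was 4.71 and 5.66 in libraries 1 and 3, with no peak in library 2. At CG15040 the fold enrichment was 4.38 and 5.93 in rump RNAi libraries 1 and 3 with no peak in library 2, against 10.3, 8.62 and 9.1 in the control libraries.

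Across all kept Ph regions, GCCAT occurred in 64.1% of the 780 summit windows inside the domains, against 55.4% of 1297 windows outside H3K27me3 and 41.2% of the windows (250 bp before to 50 bp after the start) of 13968 protein-coding promoters. GAGAG occurred in 59.2%, against 35.9% outside H3K27me3 and 29.7% of promoters. GTGTGT occurred in 29.9%, against 14.5% outside H3K27me3 and 15.7% of promoters. All 3 motifs stood together in 14.4% of windows inside the domains, 4.55% of those outside and 2.05% of promoters. Within the domains the motifs were most frequent where E(z) also had a site: of the 244 Ph regions with E(z), 79.5% held GAGAG and 45.5% GTGTGT. The windows also differed in base composition, with 56.6% GC inside the domains, 61.9% outside and 39.1% in promoters, and its part in these shares was not tested.

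The domains with Ph ranged from 2117 to 400639 bp, with a median of 15291.5 bp and quartiles of 7518 and 38504 bp. H3K27me3 domains without Ph had a median of 6610 bp and reached 47633 bp. All 51 domains of 50 kb or more contained Ph, as did 84.6% of those of 20 to 50 kb and 36.5% of those under 5 kb. In total the domains with Ph spanned 8.913 Mb, and those without 1.967 Mb. They were found on all major arms, with 65 on X, 63 on 2R, 55 on 3R, 47 each on 2L and 3L, 4 on chromosome 4, and 3 on unplaced scaffolds. H3K27me3 was called in all 4 lists in 171 of them (60.21%), against 35 (14.96%) of the domains without Ph.

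**Figure D1:**
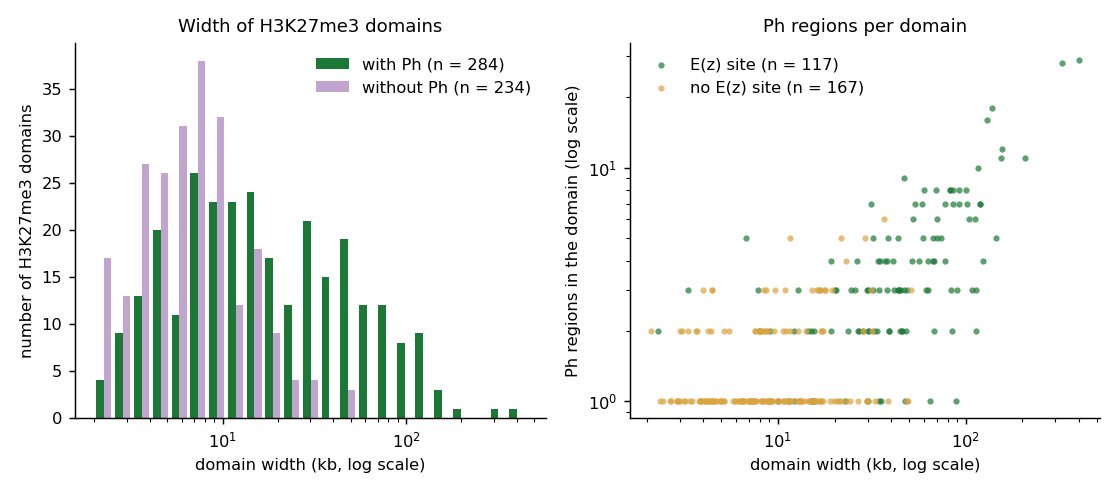
Left, number of H3K27me3 domains by width (kb, log axis) for domains with Ph (n = 284) and without Ph (n = 234). Right, number of kept Ph regions against width (both log axes) for the domains with Ph, 1 point per domain, coloured by whether E(z) has a site there (n = 117) or not (n = 167). Domains without Ph reach 47633 bp, and the widest domain with Ph, at 400639 bp, holds 29 Ph regions.

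The number of Ph regions per domain ranged from 1 to 29, with a median of 2. A single Ph region lay in 129 domains, and 5 or more in 42 domains, which held 45.26% of the 780 Ph regions and 44.4% of the base pairs. Wider domains held more Ph regions (Spearman rho 0.632 over 284 domains, which share the same libraries; a description). The Ph regions inside the domains were wider than the 1306 outside H3K27me3 (median 703 bp, against 480 bp) and stronger (median of the strongest fold enrichment 9.41, against 6.038). In 199 domains the most frequent Ph region had peaks in all 6 lists, and in 16 it had peaks in exactly 3, such as the 48813 bp CG15543 domain (strongest fold enrichment 5.66) and the 38437 bp CG4218 domain (4.59). Just outside the rule, 24 domains had a Ph region in 2 lists, the widest being the 32625 bp Cyp6a13 and 24039 bp tw domains, and the widest with a Ph region in 1 or 2 lists was the 47633 bp CG14662 domain.

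Genes that pattern the embryo were frequent in these domains. All 8 Hox genes of the list lay in 2 domains, the Antennapedia complex with lab, pb, Dfd, Scr and Antp, and the bithorax complex with Ubx, abd-A and Abd-B. Of 51 other homeobox genes, 44 lay in 31 domains, among them eve, en, inv, hth, Lim1 and ems. Of 56 other developmental transcription factor genes, 40 were included, and of 13 genes for secreted signals 10, namely wg, Wnt4, Wnt6, Wnt10, hh, dpp, upd1, upd2, upd3 and pyr. Of 16 matched Polycomb group genes, Psc and its paralog Su(z)2 were in a domain, and the other 14, among them ph-p, ph-d, Pc and E(z), were in no H3K27me3 domain. Of 16 hemocyte genes 2 were included, lz and PPO2, and of 10 broadly expressed genes 0. Over all 13968 protein-coding genes, 639 (4.57%) overlapped a domain with Ph. The domains held a median of 1 protein-coding gene and at most 25.

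Among the 284 domains, 186 had a Pc site, 143 a Psc site, 117 an E(z) site and 209 a Su(z)12 site, a site being a merged region with peaks in 3 or more of 6 lists. Among the 234 domains without Ph, 20 had a Pc site, 1 a Psc site, 0 an E(z) site and 4 a Su(z)12 site. Every domain with an E(z) site also had a Psc site, and 26 domains had Psc without E(z). All 4 proteins had sites in 115 domains, with a median width of 44841 bp and 3 Ph regions, of which 97.39% had H3K27me3 in all 4 lists. None of the 4 had a site in 30 domains, with a median width of 7512 bp and 1 Ph region, of which 13.33% had H3K27me3 in all 4 lists. The strongest Ph fold enrichment had a median of 38.54 in the domains with all 4 proteins and 5.351 in those with none. Of the DNA-binding proteins Pho, Crol and Cg, Crol was the most even. Pho had a site in 280 domains with Ph and 43 without (98.6% and 18.4%), Crol in 266 and 134 (93.7% and 57.3%), and Cg in 249 and 46 (87.7% and 19.7%).

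These shares moved with width. E(z) had a site in 4.35% of domains with Ph under 5 kb, 10.3% of those of 5 to 10 kb, 20.6% of those of 10 to 20 kb, 69.7% of those of 20 to 50 kb and 98% of those of 50 kb or more. Psc followed the same order, with 8.7%, 20.7%, 41.3%, 75.8% and 100%. Pho had a site in 96.6% or more of the domains with Ph in every width class, and in 11.2% to 41.7% of those without. Crol had a site in 87% of domains with Ph and 48.8% of those without under 5 kb, in 93.1% and 53.8% at 5 to 10 kb, in 90.5% and 76.3% at 10 to 20 kb, and in 97% and 83.3% at 20 to 50 kb, where 12 domains had no Ph.

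**Figure D2:**
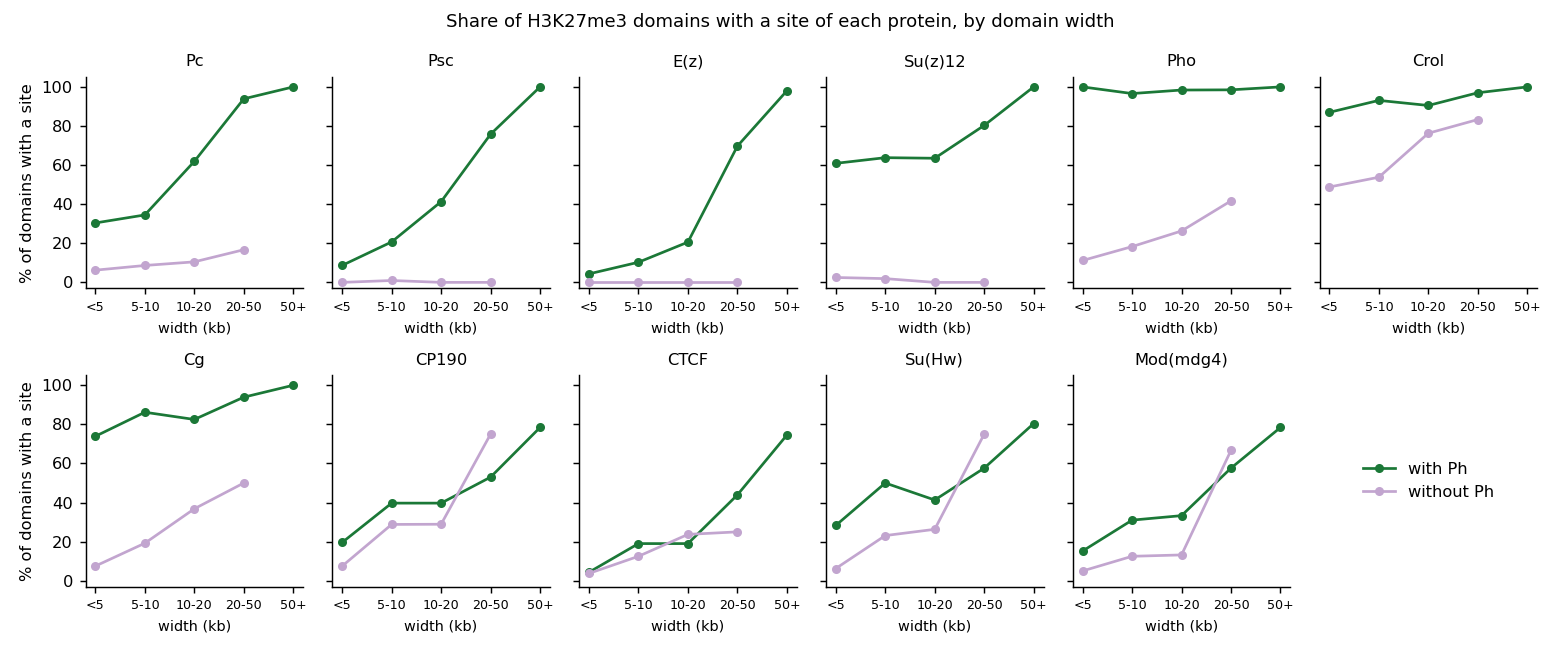
Percent of H3K27me3 domains with a site (peaks in 3 or more of 6 lists) of each of 11 proteins, by width class in kb, for domains with Ph and domains without Ph; no domain without Ph reaches 50 kb. E(z) reaches 98% of the domains with Ph, whereas Pho stays at 96.6% or more.

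To set length aside, the density of peaks per 100 kb was compared within each library between domains with and without Ph (exact two-sided sign-flip permutation test over 6 libraries; Benjamini-Hochberg over 11 proteins). Psc had 5.26 ± 2.4 peaks per 100 kb in domains with Ph and 0.0508 ± 0.0643 in domains without (SD, n = 6 libraries), E(z) had 3.13 ± 0.766 and 0.0169 ± 0.0263, and Su(z)12 had 6.48 ± 3.89 and 1.7 ± 2.81. Pho had 10.6 ± 0.864 and 3.63 ± 2.58 peaks per 100 kb, and Cg 9.56 ± 1.21 and 4.27 ± 1.94. Pc covered 17.7% ± 5.44 of the base pairs of domains with Ph and 0.863% ± 0.516 of those without. Each of these 6 proteins was denser in domains with Ph in 6 of 6 libraries, which gives the smallest p this exact test allows (2 of 64 sign patterns; adjusted p = 0.0491). Crol was not distinguished over the 6 libraries pooled, at 11.9 ± 1.45 and 10.8 ± 3.93 peaks per 100 kb, higher in 3 of 6 libraries (exact p = 0.406, adjusted p = 0.447). The Crol libraries split by condition. Control libraries had 9.63, 11.5 and 11.4 in domains with Ph, against 4.68, 9.1 and 8.9 in domains without. The rump RNAi libraries had 14, 12.4 and 12.5, against 14.3, 14.4 and 13.5, the opposite direction. This split was not tested. The densities were not compared again on domains found in more than 1 H3K27me3 list. Since 4 pairs allow no p below 0.125, the Psc difference, 3.87 without control libraries 1 and 2, could not pass the test on the remaining libraries.

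The 4 insulator proteins had sites in more of the domains with Ph than of those without, but none passed the test for a higher density per length. Insulators are elements that can separate a Polycomb domain from its neighbours: CTCF and Su(Hw) bind their DNA through zinc fingers, and CP190 and Mod(mdg4), labelled MOD, join them as partners. Per 100 kb, CP190 had 3.26 ± 0.123 peaks in domains with Ph and 4.19 ± 0.242 in domains without, lower in 6 of 6 libraries (the smallest exact p again, adjusted p = 0.0491). CTCF had 1.62 ± 0.308 and 1.45 ± 0.41 (exact p = 0.0625, adjusted p = 0.0859), Su(Hw) 3.54 ± 0.776 and 3.66 ± 0.398 (exact p = 0.469, adjusted p = 0.469), and Mod(mdg4) 2.96 ± 1.61 and 2.27 ± 0.69 (exact p = 0.188, adjusted p = 0.229). Counted per domain, 46.5% of domains with Ph had a CP190 site, 32.4% a CTCF site, 51.8% a Su(Hw) site and 43.7% a Mod(mdg4) site, and 91 had none of the 4. Among domains without Ph the shares were 23.9%, 12%, 20.5% and 12.8%, and 162 had none of the 4. Between 5 and 20 kb, Su(Hw) had a site in 45.5% of domains with Ph and 23.9% of those without, and Mod(mdg4) in 32.2% and 12.7%. The shares were closer for CP190 (39.7% and 28.9%) and CTCF (19% and 15.5%). Width was not fully matched in this class, with medians of 10577 bp with Ph and 8149.5 bp without. Most insulator sites lay inside the domains: 24.9% of CP190, 23.7% of CTCF, 25.6% of Su(Hw) and 21.4% of Mod(mdg4) sites were within 2 kb of an edge, a zone with 12.5% of the base pairs, against 8.73% of E(z), 11.4% of Psc and 12% of Pc sites. Other proteins had like shares at the edges, with 25% of Ph regions and 22.5% of Pho, 23.5% of Crol, 22.8% of Su(z)12 and 20% of Cg sites. In domains without Ph, where 44.7% of the base pairs are within 2 kb of an edge, 44.8% of CP190 and 44.3% of Su(Hw) sites were there. All these edge shares include sites that overlap a domain but have their midpoint beyond its edge. The base-pair shares count only the inside of the domains, so the site shares are somewhat raised beside them. Of the Ph regions inside the domains, 7.949% coincided with a site of CP190, 5.385% with one of CTCF, 17.05% with one of Su(Hw) and 14.49% with one of Mod(mdg4). The Mod(mdg4) share depended on the library: its peaks lay on 38.6%, 9.49% and 4.23% of these Ph regions in rump RNAi, against 35.4%, 11.7% and 8.72% in control. The Mod(mdg4) lists of library 1 reached down to a −log10 q of 2.24 (rump RNAi) and 2.17 (control), the other lists to 4.12 or more. For Su(Hw) the values were 2.02 and 2.28 in library 1 and 4.04 or more in the others. The part of this difference in the shares was not tested.

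The bithorax domain spanned 326681 bp, each of the 4 H3K27me3 lists had 1 peak in it, and 28 kept Ph regions lay within it. Ph had 25, 19 and 28 peaks there in the rump RNAi libraries, against 30, 30 and 32 in the control libraries. Psc had 12, 15 and 10 peaks in rump RNAi, against 37, 38 and 18 in control, so that all rump RNAi libraries held fewer. E(z) had 18, 14 and 14 peaks in rump RNAi and 17, 11 and 27 in control, and CP190 had 13, 13 and 14 in rump RNAi and 13 in each control library. The groups overlapped for E(z), and CP190 hardly varied.

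**Figure D3:**
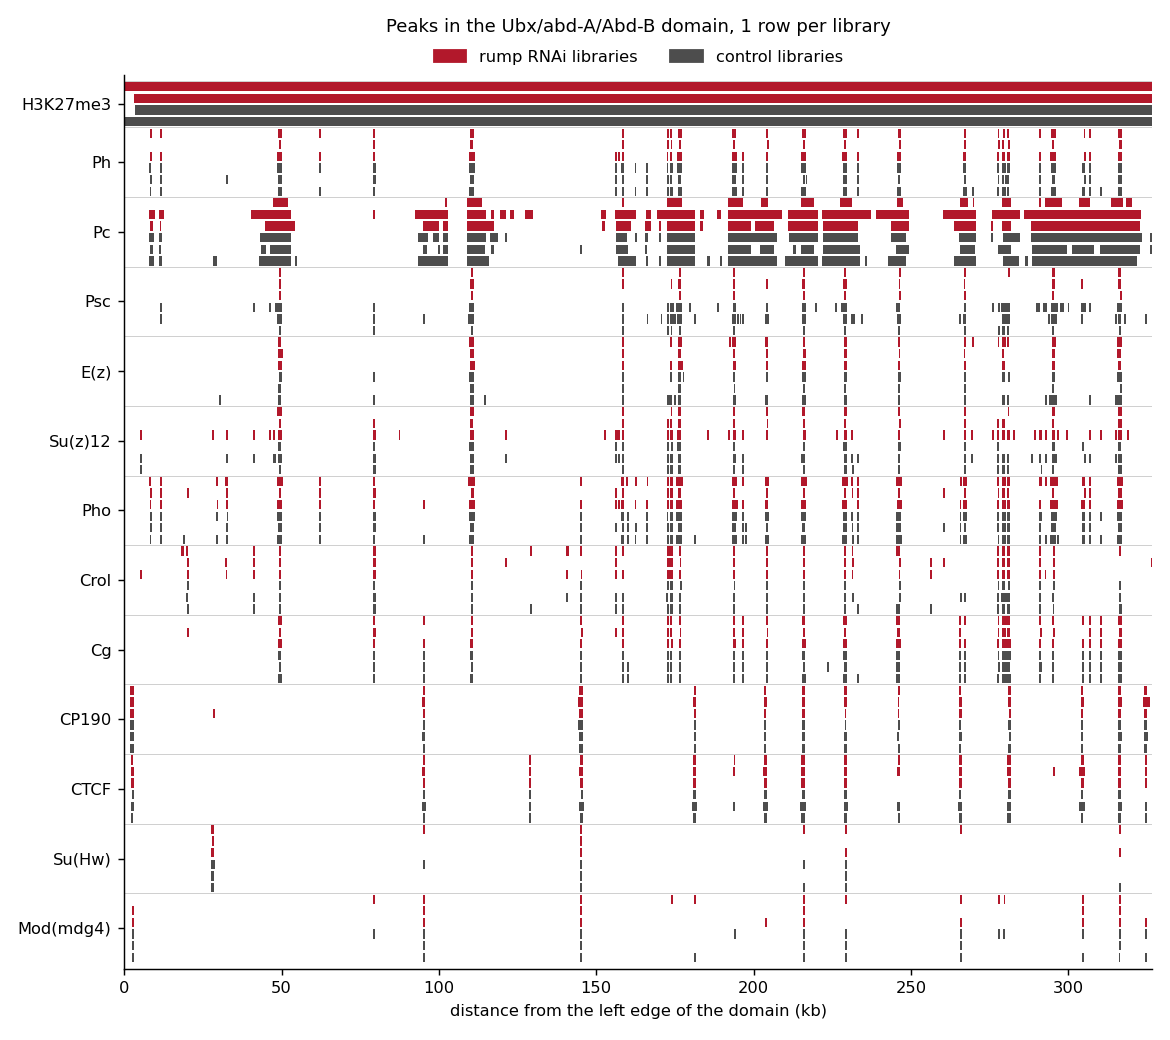
Peaks of each library in the Ubx/abd-A/Abd-B domain against distance from its left edge (kb), 1 row per library, rump RNAi rows above control rows for each of 13 targets; narrow peaks are drawn with a minimum width so that they can be seen. H3K27me3 covers nearly the whole domain in every library, and the Psc rows of control libraries 1 and 2 hold 37 and 38 peaks.

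At the strongest bithorax Ph region, the one whose sequence is shown above, Ph fold enrichment was 47.8, 29 and 52.2 in rump RNAi, against 40.2, 31.8 and 44.3 in control. Psc there was 17.5, 28.4 and 11.5 in rump RNAi and 19.2, 28.2 and 34 in control, E(z) was 22.3, 19.5 and 20 in rump RNAi and 16.5, 22.8 and 14.5 in control, and no insulator protein had a peak. The conditions overlapped for each of these 3 proteins.

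The eve domain (eve encodes a homeobox protein that patterns segments), 15007 bp on 2R, contained 2 Ph regions. The stronger, at 9978384 to 9980665, had Ph fold enrichments of 33.9, 25.9 and 34.2 in rump RNAi and 33.4, 38.6 and 28.2 in control, and E(z) values of 27.7, 8.11 and 11.8 in rump RNAi and 18.4, 9.54 and 7.51 in control. CP190 and CTCF had no peak on it, Su(Hw) had one in 1 rump RNAi library (3.57) and 2 control libraries (3.81 and 3.56), and Mod(mdg4) in 2 rump RNAi (7.28 and 5.55) and 2 control libraries (7.15 and 5.48). The weaker, at 9988141 to 9988880, crossed the right edge of the H3K27me3 domain and had Ph values of 12.2, 4.07 and 14.2 in rump RNAi and 15.6, 15.8 and 15.7 in control, so that all rump RNAi values were lower. Psc had a peak on it in 1 rump RNAi library (6.31) and in all 3 control libraries (5.5, 7.3 and 8.27). This edge region carried Su(Hw), at 25, 16.6 and 18.6 in rump RNAi and 13.3, 13 and 14.2 in control, and CP190, at 4.57, 7.03 and 6.03 in rump RNAi and 3.64, 6.05 and 3.93 in control. The H3K27me3 peak ended at 9988294 and 9988363 in rump RNAi, against 9987902 and 9988314 in control.

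Across the 284 domains, Ph was found in 246, 222 and 278 domains in the rump RNAi libraries, against 273, 279 and 278 in the control libraries. Over the 446 inside Ph regions with peaks in all 6 lists, the median fold enrichment was 14.1, 7.63 and 18.3 in rump RNAi, against 19.6, 16.6 and 19.8 in control; rump RNAi library 2 was the lowest. H3K27me3 covered 79.6% and 73.3% of the domains' base pairs in rump RNAi, against 80.8% and 94.5% in control. In the 171 domains with H3K27me3 in all lists, the median extent was 24806 and 22616 bp in rump RNAi, against 27852 and 31375 bp in control. The extent was narrower in both rump RNAi libraries than in both control libraries in 80 of them (46.8%), beside 46.1% of all 206 H3K27me3 domains found in 4 lists, and wider in 5 (2.92%), beside 2.91% of all. The shares in domains with Ph were thus near those of all such H3K27me3 domains.

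Pc covered 8.86%, 24.5% and 15.1% of the domains' base pairs in rump RNAi, against 18.9%, 17.3% and 21.7% in control. The mean was 16.1% ± 7.85 in rump RNAi and 19.3% ± 2.22 in control (SD, n = 3 each), a difference within the spread of the libraries (exact two-sided permutation test, p = 0.6, adjusted p = 0.943). Without rump RNAi library 1 the difference changed sign, to 0.476 percentage points. Pc cover was higher in domains with more Ph regions, as a description: its median over 129 domains with 1 Ph region was 1.03%, and over 42 domains with 5 or more it was 20.4%. In 87 domains Pc covered nothing in any library, and in 19 its mean cover was 50% or more. The Psc/Su(z)2 domain was among the most covered, with 36.8%, 71.4% and 49.4% in rump RNAi and 63%, 63.5% and 71.4% in control, whereas the wider tsh domain had 2.93%, 8.54% and 4.96% in rump RNAi and 5.96%, 4.66% and 8.22% in control.

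Psc was the Polycomb protein with the largest difference in the share of domains with a peak. A Psc peak lay in 42.6%, 47.2% and 44% of domains in rump RNAi, against 54.2%, 52.8% and 65.5% in control. The groups did not overlap, with means of 44.6% ± 2.34 in rump RNAi and 57.5% ± 6.95 in control (SD, n = 3 each), and the test gave its smallest possible value (exact two-sided permutation test, p = 0.1, adjusted over 11 proteins p = 0.55). Psc lists were shorter in rump RNAi, and with lists of equal length, strongest peaks first, the difference was -0.939 percentage points in place of -12.9. With same-numbered Psc libraries paired, the exact sign-flip p was 0.25, the smallest 3 pairs allow. Pho also did not overlap, at 94%, 94% and 93.7% in rump RNAi and 97.2%, 97.5% and 98.6% in control (p = 0.1, adjusted p = 0.55, same exact test). With lists of equal length the Pho difference was -2.35 percentage points in place of -3.87 (exact permutation p = 0.3), and with the same-numbered Pho libraries paired the exact p was 0.25, the smallest 3 pairs allow.

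E(z) had a peak in 53.5%, 35.9% and 41.2% of domains in rump RNAi, against 46.8%, 37.3% and 39.8% in control, and Su(z)12 in 42.3%, 56.3% and 87.7% in rump RNAi, against 41.2%, 87.3% and 72.2% in control. Both overlapped between conditions (exact permutation test, p = 0.8 for E(z) and p = 1 for Su(z)12, adjusted p = 0.978 and 1). The insulator proteins overlapped too. CP190 had a peak in 45% ± 1.02 of domains in rump RNAi and 44.8% ± 1.81 in control (exact p = 1), CTCF in 30.8% ± 2.99 and 28.1% ± 4.6 (exact p = 0.5), Su(Hw) in 46.2% ± 7.65 and 52.6% ± 5.91 (exact p = 0.2), and Mod(mdg4) in 44.2% ± 20.3 and 47.1% ± 16.3 (exact p = 0.6), with adjusted p-values of 0.733 to 1. Crol had a peak in 93.4% ± 0.538 and 92.8% ± 1.59, and Cg in 85% ± 5.5 and 87.3% ± 1.61 of domains (exact p = 0.8 and 0.6, adjusted p = 0.978 and 0.943). With 3 libraries in each condition, none of these 11 comparisons could reach a p below 0.1.

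**Figure D4:**
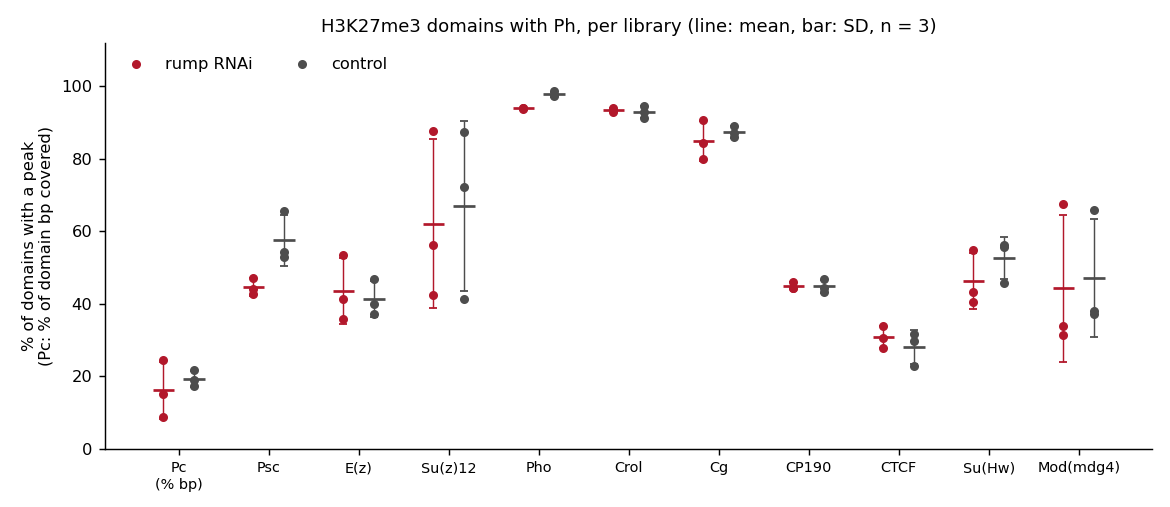
Percent of the 284 domains with at least 1 peak, for each library of 10 proteins, and percent of their base pairs covered by Pc; points are libraries, lines the mean and bars the SD (n = 3), rump RNAi left of control. The conditions do not overlap for Psc (42.6% to 47.2% in rump RNAi, 52.8% to 65.5% in control) and Pho (93.7% to 94% in rump RNAi, 97.2% to 98.6% in control).

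Some weak Psc regions had peaks in the control libraries only. Of 919 Psc regions in the domains, 41 (4.46%) had a peak in no rump RNAi library and in all 3 control libraries, beside 3.79% of all 1321 Psc regions. These 41 regions lay in 34 domains. Only regions with a peak in all 3 control libraries could show this pattern, and the 919 include others. All Psc lists were shorter in rump RNAi, and the part of list length in these counts was not tested. All 41 overlapped a kept Ph region, as did 274 of the other 275 regions found in all 3 control libraries. Their control fold enrichment had a median of 6.21, against 16.2 for those other 275. In 9 domains (3.17%), beside 1.93% of all 518 H3K27me3 domains, Psc had a peak in no rump RNAi and in all control libraries: trol, CG15578, apt, Imp, CG17570, Tango8, CG45087, Egfr and Dad. In no library did more than 3 of the 234 domains without Ph have a Psc peak, so few of them could show this pattern. The trol gene encodes the extracellular matrix protein perlecan, Egfr the epidermal growth factor receptor and Dad an inhibitor of Dpp signalling. At the Ph region of the trol domain Psc had no peak in rump RNAi, against fold enrichments of 5.53, 4.94 and 8.48 in control, whereas Ph itself was 10.7, 6.08 and 13.2 in rump RNAi and 15.9, 15.8 and 15.5 in control. The Ph values of rump RNAi were all lower there.

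Psc peaks away from Ph sites came almost entirely from a pair of control libraries. Libraries are numbered here by their labels; the peak names inside the Psc, E(z) and Su(z)12 lists carry other numbers, in the same way in both conditions. The domains held 1, 15 and 0 such peaks in rump RNAi, against 344, 228 and 6 in control. Their median fold enrichment was 4.69 in control library 1 and 5.14 in control library 2, against 8.08 and 10.2 for the peaks at Ph regions of the same libraries. They lay in 69 and 52 domains, 50 of them shared, and were most numerous in the opa domain, with 0, 4 and 0 in rump RNAi, against 27, 32 and 1 in control. Pc regions overlapped 310 of the 344 peaks and 211 of the 228. Control library 3 had more Psc peaks at Ph regions (500) than libraries 1 and 2 (451 and 404), with few peaks between them.

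Peak strength was compared where all 6 libraries of a protein had a peak, as log2 fold enrichment centred on each library's median (limma, adjusted over all regions of the protein, calls at adjusted p under 0.05). No region was called for Pc (0 of 260, 231 of them in the domains), Psc (0 of 218, 199 in the domains), E(z) (0 of 157, 155 in the domains), Su(z)12 (0 of 206, 189 in the domains) or Cg (0 of 4576, 589 in the domains), a share of 0% for each. At an unadjusted p under 0.05, 6, 7, 2, 2 and 31 regions in the domains passed for Pc, Psc, E(z), Su(z)12 and Cg. For Pc, Psc, E(z) and Su(z)12 most tested regions lay in the domains, so centring removes a shift common to the domains. The centred fits therefore cannot show whether strength in the domains shifted as a whole. Without centring, the median log2 fold over all regions was -0.42 for Psc and 0.23 for E(z), in place of 0.077 and 0.015. No region of Pc, Psc, E(z) or Su(z)12 was called without centring either. For Psc, libraries of the same number deviated together, and with the replicate number as a block 2 regions in the domains were called higher: one in the Idgf1 domain (20.84, 27.94 and 18.88 in rump RNAi, 17.4, 22.35 and 26.1 in control, adjusted p = 0.0387 by limma) and one in the Psc/Su(z)2 domain (20.32, 38.46 and 35.89 in rump RNAi, 20.87, 28.31 and 39.73 in control, adjusted p = 0.0387 by limma). Their deposited values overlapped between conditions.

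Pho had 1 region called in the domains, of 604, beside 0.187% of all 2144. It lay in the Snap25 domain on 3L (Snap25 encodes a synaptic fusion protein), at 4.65, 6.56 and 5.23 fold enrichment in rump RNAi and 3.55, 1.82 and 3.59 in control, a log2 fold of 0.96 (SE 0.24, limma adjusted p = 0.0408). All rump RNAi values were higher. The call was lost without rump RNAi library 2 or 3 or any 1 of the control libraries, with 0 regions called, and with the replicate block, where Pho libraries of the same number also deviated together, 3 regions were called.

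Crol was the protein with calls in number. Of 678 Crol regions tested in the domains, 80 were called higher (11.8%) and 35 lower (5.16%) under rump RNAi, beside 8.68% higher and 10.6% lower among all 4999. The number of calls depended on rump RNAi libraries 2 and 3: without library 2, 2 regions in the domains were called, and without library 3, 2. Leaving out rump RNAi library 1 or control library 1, 2 or 3 gave 121, 77, 123 and 82 calls in the domains. Of these, 80, 42, 88 and 56 were higher and 41, 35, 35 and 26 lower. The excess of higher calls was thus smallest without control library 1, where 794 regions in the domains were tested. In that setting 258 of 568 calls among all 6161 regions were higher. Without centring, 0 regions were called, with 126 in the domains at an unadjusted p under 0.05. The regions with the smallest p in the domains, chosen after their values were seen, included one in the Antennapedia complex at 3R 6909231 to 6909925 (6.47, 6.06 and 5.79 in rump RNAi, 2.05, 3.69 and 4.62 in control, limma adjusted p = 0.00709) and one in the vnd domain (vnd encodes a neural homeobox factor; 6.59, 7.33 and 6.79 in rump RNAi, 3.57, 4 and 3.65 in control, limma adjusted p = 0.0072). One in the Egfr domain was lower (4.11, 2.86 and 3.12 in rump RNAi, 4.88, 6.36 and 5.11 in control, limma adjusted p = 0.00687). In these 3 regions the conditions did not overlap.

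The direction of Crol values differed by place, as a description. The median log2 fold was 0.15 over the 510 Crol regions in the domains that overlapped a kept Ph region, with 60.8% above 0, and -0.011 over the 168 away from Ph, with 47.6% above 0. Outside the domains it was 0.36 over 1065 regions at Ph, with 87.1% above 0, and -0.19 over 3256 regions away from Ph, with 29% above 0. Over all 4999 regions the median was -0.058. Without centring, all of these medians were higher by 0.11, which puts the regions of the domains away from Ph above 0.

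**Figure D5:**
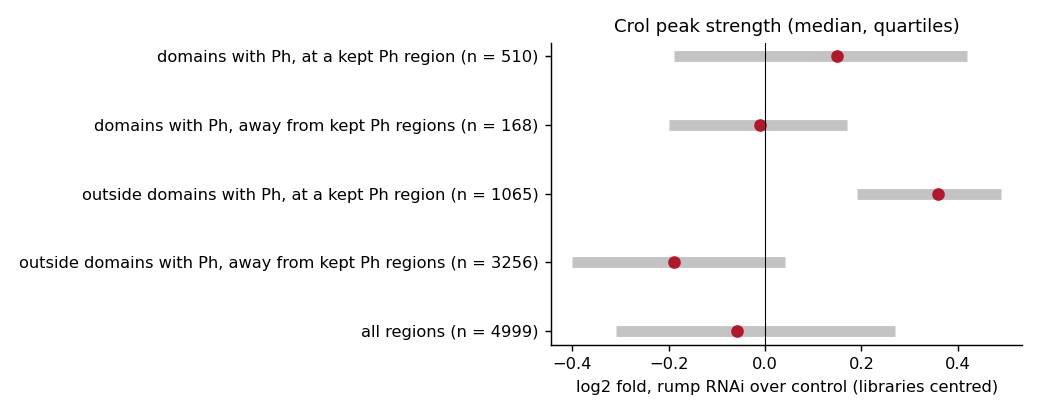
Median (point) and quartiles (bar) of the log2 fold of Crol peak strength, rump RNAi over control with libraries centred on their medians, for regions with a peak in all 6 libraries, by place. The median is 0.15 at Ph in the domains with Ph, 0.36 at Ph elsewhere and -0.19 away from Ph elsewhere.

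Crol regions with peaks only under rump RNAi lay mostly away from Ph. Of 1420 Crol regions in the domains, 72 (5.07%) had a peak in all 3 rump RNAi libraries and in no control library, beside 7.16% of all 13679 Crol regions, and 6 (0.423%) showed the opposite, beside 1.4% of all. These 72 regions lay in 55 domains, and 3 of them overlapped a kept Ph region, whereas 44% of all Crol regions in the domains did. Of the 625 Crol regions of the domains at Ph, 510 had a peak in all 6 libraries and could not show this pattern. Away from Ph, 168 had a peak in all 6, so the shares of 3 in 72 and 44% are not on an equal footing. The 3 lay in the domains of Gsc, Orai and hh. The hh gene encodes the secreted signal Hedgehog, and its Ph region had Crol fold enrichments of 2.87, 2.31 and 2.93 in rump RNAi with no control peak, beside Pho at 5.67, 4.45 and 9.17 in rump RNAi and 7.98, 7.1 and 8.59 in control. Away from Ph, the domains held 634, 527 and 535 Crol peaks in rump RNAi, against 273, 401 and 399 in control, while at Ph they held 612, 577 and 580, against 585, 624 and 614. All Crol lists were longer in rump RNAi, and the part of list length in these counts was not tested.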

How the data were processed

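Chromatin was immunoprecipitated from Kc167 cells for 12 proteins (3 rump RNAi and 3 control libraries each) and H3K27me3 (2 and 2). Per the labels and the study's methods, the authors trimmed reads (Trim Galore 0.6.7), aligned them to dm6 (Bowtie2 2.5.3), removed duplicates (Picard) and called peaks against input in each library with MACS2 2.2.7.1, broad peaks for Pc and H3K27me3. The deposited lists give fold enrichment over input as a ratio and −log10 p- and q-values, at least 2.02 for q. Reads per library are not in the lists, so depth and its precision are unknown. Of 34 input libraries, 17 have labels that disagree on the treatment; none was used.

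Members and lists were chosen with earlier results of these data known. Peaks were merged at an overlap of 1 bp, and a site needed peaks in 3 of 6 lists. Genes came from Ensembl release 115 and sequence from RefSeq; the last peak on each arm lay within the reference arm. Shares and cover were compared with exact permutation tests over libraries, densities with exact sign-flip tests, and strength with limma 3.58.1 in R 4.3.3, on regions with peaks in all 6 libraries. The tests were tested on simulated data, where a log2 change of 1 was recovered in 38% (Pho) to 100% (Pc) of changed regions. The changed share differed (65 of 260 regions for Pc, 200 of 2144 for Pho), so these rates cannot be compared between proteins. Smaller changes were not simulated. P-values measure only the spread between these libraries. Domains named were the 10 widest, the 5 with most Ph regions, those with Hox, signal or Polycomb genes, those at the threshold and those with peaks in all libraries of 1 condition only (up to 5 for each protein); the other 4 Psc domains, opa, and the domains with strength calls or Crol changes were named after their values were seen. A domain is named by its listed genes, otherwise by the gene start nearest its strongest Ph summit. Same-numbered libraries counted as paired where all 3 correlations of their deviations exceeded 0.1: strength of Psc (0.435, 0.437 and 0.372) and Pho (0.369, 0.588 and 0.443), and peak presence of Pho (0.154, 0.351 and 0.194) and Mod(mdg4) (0.141, 0.121 and 0.398; paired exact p = 0.5). Peak presence of Psc (0.0977, 0.221 and 0.2) fell just short of this rule. Alternatives were other thresholds, merging, list lengths, scalings, a replicate block and leaving out each library.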

Additional observations from a re-analysis of the deposited data

How the results depend on the processing

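The number of domains stayed within 1.5 times of 284 except for H3K27me3 in all 4 lists (171) and H3K27me3 −log10 q of 20 or more (113). Their median width moved by more for those settings (32069 and 39118 bp) and for Ph in all 6 lists (25600 bp). With lists of equal length, the difference in the share of domains with a peak changed sign for E(z) (-0.822), Crol (-0.117), Cg (1.53) and Mod(mdg4) (3.52 percentage points). Leaving out 1 library gave ranges of -7.32 to 0.476 for Pc cover, -2.76 to 6.04 for E(z), -17.7 to 5.4 for Su(z)12, -0.235 to 1.35 for Crol, -5.28 to 0.176 for Cg, -0.646 to 1.12 for CP190 and -14.5 to 6.57 for Mod(mdg4). CTCF (0.117 to 4.52), Su(Hw) (-10.7 to -3.46), Psc (-15.3 to -8.92) and Pho (-4.17 to -3.46) kept their direction. With equal lists CTCF was 0.469, in place of 2.7, Su(Hw) -1.64, in place of -6.34, and Su(z)12 -0.822, in place of -4.81. Density differences crossed the threshold for Su(Hw) in domains of 5 kb or more (-0.52) and CTCF at −log10 q of 10 or more (0.197), and Psc fell short without control libraries 1 and 2 (3.87), a setting chosen after seeing the data, as was Psc at Ph regions only (-12.9). Strength calls in the domains moved for Psc with peaks in 2 libraries of each condition (1), for Pho without centring (0), under quantile scaling (0) and with peaks in 2 libraries of each condition (0), and for Crol without centring (0). Leaving out 1 library gave 0 to 2 calls for Psc, 0 to 1 for Pho and 2 to 123 for Crol. With the replicate block, calls were 2 for Psc, 3 for Pho and 220 for Crol; for Crol the numbers did not pair the libraries (correlations 0.317, 0.164 and 0.0225). On the shares, the block with 3 pairs allows no p below 0.25, and it changed no other call. The cause of these changes was not tested, except that 4 pairs cannot pass the test.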
